A study of Mus musculus with 12 samples.

Results

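Notch1, its ligand Dll1, the Notch target genes Hes1 and Hes5 and the inhibitors of differentiation Id1, Id2, Id3 and Id4 were examined across the pieces of the embryonic mouse cortex. Every probe set that the platform annotation pairs with 1 of these 8 gene symbols was taken, which gave 8 of the 8251 genes that the annotation names, with 11 probe sets of the 12422 that are not controls. Of the 11, 8 probe sets of 7 genes were bright enough to be tested, and both probe sets of Hes5 and 1 of the 2 of Dll1 were not.

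The study measured mRNA in pieces of the mouse cortical hemisphere at E16.5 (in embryonic days) on 12 Affymetrix arrays. The groups, each with 2 arrays, were titled Ventral, Medial, Dorsal, Rostral and Occipital for the 5 pieces, and Hemisphere for the whole. All groups share stage and tissue, no treatment or allele is given, and strain and number of embryos per dissection are not given in the sources used here. By the labels, replicates came from independent dissections, and the protocol text lists a lateral piece where the titles name Rostral.

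Notch1 is a receptor that is cut when Dll1 on a neighbouring cell binds it. The freed part enters the nucleus, joins the DNA-binding protein Rbpj and switches on genes such as Hes1 and Hes5, whose products repress proneural genes and keep cortical radial glia dividing. Id proteins have a helix-loop-helix but no basic region. They bind E proteins such as Tcf4 and keep them from DNA, and in many tissues they are induced by bone morphogenetic proteins (BMPs).

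The values are average differences, which Affymetrix defined as the signal of matching probes less that of their mismatch partners, averaged over a probe set. The scale is linear, can go below 0 and does not allow levels of different probe sets to be compared. For tests, values under a floor of 693.5 were raised to it before log2, and a probe set was tested if it exceeded 1387 on at least 2 of the 12 arrays. Differences come from limma over all 5832 tested probe sets, with Benjamini-Hochberg adjusted p and a threshold of 0.05. Each log2 difference is given with its standard error (SE) and each mean with its standard deviation (SD).

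Some arrays went against the others of their group. The summed level of 8 markers of the subpallium, the region below the cortex that makes inhibitory neurons, was 58638 and 52756 in the 2 Ventral arrays. It was 32826 in Rostral replicate 1 and 53714 in Rostral replicate 2, and 59940 in Occipital replicate 1 and 27259 in Occipital replicate 2. Medial arrays had 16935 and 14581, Dorsal arrays 19448 and 17410, and Hemisphere arrays 41775 and 33331. Rostral replicate 2 and Occipital replicate 1 were thus both close to the Ventral arrays in this sum, so calls that use these pieces and change without the 4 Rostral and Occipital arrays are given that way too. Of the cortical markers, Tbr1, Eomes, Neurod6 and Pax6 were on the array annotation and were tested. Over probe sets, Pearson's r was 0.901 to 0.962 within a group and 0.854 to 0.969 between groups.

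Promoter sequences are shown for the genes whose values carry the comparisons below. Notch1, on probe set 97497_at but not on its other one, and Id2 had the lowest values in the Ventral piece. Id4 had its highest mean there, and Hes5 is the Notch target whose window holds 2 copies of the Rbpj core motif. Each window runs from 250 bases before to 50 bases after the RefSeq start in assembly GRCm38.p6, 5′ to 3′ on the gene's strand. Capitals mark TGGGAA, the core bound by Rbpj, which reads TTCCCA on the opposite strand. They also mark CACNAG, bound by Hes proteins, which reads CTNGTG on the opposite strand.
Notch1 (chr2:26503773-26504072, minus strand): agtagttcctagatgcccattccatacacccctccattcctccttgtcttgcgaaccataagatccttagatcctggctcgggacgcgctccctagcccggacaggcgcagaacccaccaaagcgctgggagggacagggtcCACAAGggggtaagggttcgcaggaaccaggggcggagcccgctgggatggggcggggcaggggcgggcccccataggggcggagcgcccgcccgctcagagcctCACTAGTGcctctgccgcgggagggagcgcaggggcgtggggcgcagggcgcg
Id2 (chr12:25096043-25096342, minus strand): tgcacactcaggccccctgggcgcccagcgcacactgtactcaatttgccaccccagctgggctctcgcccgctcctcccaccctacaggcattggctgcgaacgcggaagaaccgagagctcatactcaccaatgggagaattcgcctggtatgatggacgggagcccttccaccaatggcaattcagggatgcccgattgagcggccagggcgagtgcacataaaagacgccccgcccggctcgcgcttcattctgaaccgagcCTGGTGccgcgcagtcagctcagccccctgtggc
Id4 (chr13:48260866-48261165, plus strand): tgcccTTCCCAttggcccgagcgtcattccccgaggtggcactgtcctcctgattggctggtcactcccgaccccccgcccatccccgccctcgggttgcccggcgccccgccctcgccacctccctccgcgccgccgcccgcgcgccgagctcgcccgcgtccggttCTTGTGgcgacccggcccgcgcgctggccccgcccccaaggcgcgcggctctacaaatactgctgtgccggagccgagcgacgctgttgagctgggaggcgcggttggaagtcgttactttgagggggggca
Hes5 (chr4:154960673-154960972, plus strand): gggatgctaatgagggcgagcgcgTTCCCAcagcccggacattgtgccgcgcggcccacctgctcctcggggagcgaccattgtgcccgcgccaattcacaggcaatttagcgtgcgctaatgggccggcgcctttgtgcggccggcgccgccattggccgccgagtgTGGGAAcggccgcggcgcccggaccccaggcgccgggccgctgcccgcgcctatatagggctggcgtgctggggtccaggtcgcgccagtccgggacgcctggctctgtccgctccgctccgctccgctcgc

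RefSeq windows were matched for 6 of the 8 genes, 7 windows in all since Dll1 has 2. Hes1 and Id1 had none and were not searched. In the Hes5 window TGGGAA starts 226 bases before the start on the minus strand and 82 bases before it on the plus strand. The Notch1 window holds CACNAG 3 times, of which the pair at the start overlaps. Over both strands TGGGAA was in 2 of the 7 windows and CACNAG in 4 of 7, against 25.56% and 42.48% of 32851 mouse promoter windows of this length. The E-box CANNTG, bound by proneural and E proteins, was in 4 of 7 windows, against 72.31%. At least 2 copies of TGGGAA, as in Hes5, were in 3.79% of all windows. A match is a description of letters only, and no binding was measured.

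The receptor Notch1 had its lowest values in the Ventral piece on probe set 97497_at, but not on its second probe set, described below. On 97497_at its average difference was 11.5 and -85.4 in the Ventral arrays. The other regions had 3209.5 and 3480.9 in Medial, 1573.9 and 1711.1 in Dorsal, 2932.3 and 2258 in Rostral and 2290.2 and 2994.5 in Occipital. Both Ventral arrays were below the floor, and every array of the other 4 regions lay above the filter level. The Ventral mean was -36.95 ± 68.5 (SD, n = 2), against 2556 ± 702 (SD, n = 8) in the other regions. The difference was at least 3.56-fold lower in Ventral (log2 -1.83 ± 0.31 SE, limma adjusted p = 0.00853). Whether fewer cells carried the mRNA or each cell had less of it cannot be told apart in bulk tissue.

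Id2, an Id gene known for its expression in developing cortical layers, was also lowest in the Ventral piece. Its values were 16513.5 and 17257 in Ventral. They were 32835.9 and 34183.4 in Medial, 29988.2 and 31746.2 in Dorsal, 27566.8 and 30624.8 in Rostral and 29437.5 and 24489.2 in Occipital. The Ventral arrays lay below the lowest array of any other region. Ventral averaged 16885 ± 526 (SD, n = 2), against 30109 ± 3059 (SD, n = 8), a 1.78-fold lower level (log2 -0.83 ± 0.13 SE, limma adjusted p = 0.00703). These 2 were the only member probe sets called of the 8 tested, both lower, against 9.79% of all 5832 probe sets called in this comparison and 5.54% called lower.

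With 1 Ventral array left out, that group has no spread of its own and the other array is assumed to vary like the other groups. The log2 difference of Notch1 97497_at was then -1.83 without either array (limma adjusted p = 0.0972 without Ventral replicate 1 and 0.0826 without replicate 2). That of Id2 was -0.80 and -0.86 (limma adjusted p = 0.0953 and 0.0621). Over all 22 alternatives the limma adjusted p ran from 0.000901 to 0.0972 for this Notch1 probe set and from 0.00194 to 0.0953 for Id2. The size of the Notch1 difference follows the floor, with log2 -2.83 at 0.5 times the floor and -0.83 at 2 times the floor. Without the Rostral and Occipital arrays the log2 differences were -1.76 for Notch1 97497_at and -0.93 for Id2 (limma adjusted p = 0.0313 and 0.0121).

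The second Notch1 probe set, 162204_r_at, is of the type Affymetrix designed with relaxed rules for choosing probes. Its values were 2650.7 and 3103.1 in Ventral, 4627.9 and 5927.5 in Medial, 1946.3 and 4137.1 in Dorsal, 4230.5 and 5505.5 in Rostral and 4177.8 and 6841.2 in Occipital. The Ventral arrays were below those of Medial, Rostral and Occipital and within the range of the Dorsal arrays. Its log2 difference between Ventral and the other regions was -0.63 ± 0.45 SE (limma adjusted p = 0.475). The sign was that of 97497_at, and the test was not passed.

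Dll1, the ligand, had 67.8 and -206.2 on probe set 92931_at in Ventral. The other regions had 1970.5 and 1200.9 in Medial, 1652.5 and 569.3 in Dorsal, 2211.6 and 520.1 in Rostral and 1134 and 1668.6 in Occipital. Both Ventral arrays were the lowest of the 10 region arrays, but the replicates of Dorsal and of Rostral were far apart. The log2 difference of Ventral from the others was -0.90 ± 0.44 SE (limma adjusted p = 0.265). It passed on an arcsinh scale, which keeps values below the floor apart (-2.10, limma adjusted p = 0.0226). Over the 21 alternatives in which Dll1 was tested its limma adjusted p ran up to 0.622. The other Dll1 probe set, 161634_r_at, lay between -465.5 and 7.7 and was negative on 11 of 12 arrays, so it gives no level.

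Hes1, the transcriptional repressor downstream of Notch, had 1421.6 and 1553.3 in Ventral. It had 2544.5 and 3859.6 in Medial, 1568.5 and 2597.3 in Dorsal, 1564.3 and 2256.8 in Rostral and 2147.2 and 2899.2 in Occipital. The Ventral arrays were the lowest of the region arrays, by a narrow margin over Rostral and Dorsal replicate 1. Ventral averaged 1487 ± 93.1 (SD, n = 2), against 2430 ± 747 (SD, n = 8), with a log2 difference of -0.65 ± 0.32 SE (limma adjusted p = 0.260). With replicate number as a block the same difference had a limma adjusted p of 0.0321, and over its 22 alternatives up to 0.600. Hes1 was higher on replicate 2 than on replicate 1 in 6 of 6 groups, and so was Notch1 162204_r_at.

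Hes5, the other Notch target, was too dim to test. On probe set 161051_at it had 923 and 1024.4 in Ventral, 1286.9 and 875.8 in Medial, 645.2 and 541.5 in Dorsal, 1561.6 and 1048.3 in Rostral, 1022.5 and 1053.9 in Occipital and 1056.3 and 690.1 in Hemisphere. The lowest 2 arrays were the Dorsal ones, both under the floor, and only Rostral replicate 1 exceeded the filter level. The Ventral values lay within the range of the other regions, unlike those of Notch1 97497_at and Hes1. The second Hes5 probe set, 162069_at, lay between -261.4 and 283 and never reached the floor.

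Id4 was the member with its highest mean in the Ventral piece. It had 10389.8 and 11455.4 in Ventral, 5814.5 and 3939.1 in Medial, 3061.3 and 5031.6 in Dorsal, 7298.6 and 12191.1 in Rostral and 10807.2 and 5972.2 in Occipital. The Ventral arrays stood above every Medial and Dorsal array, while Rostral replicate 2 and Occipital replicate 1 reached their range. Ventral averaged 10923 ± 753 (SD, n = 2), against 6764 ± 3214 (SD, n = 8), with a log2 difference of 0.83 ± 0.34 SE (unadjusted p = 0.0370, limma adjusted p = 0.182). Without the Rostral and Occipital arrays the log2 difference was 1.33 (limma adjusted p = 0.0527).

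Id1 and Id3, Id genes known from blood vessels and from BMP signalling, did not pass between Ventral and the other regions. For Id1 the log2 difference was 0.28 ± 0.47 SE (limma adjusted p = 0.780), from values of 1586.9 and 1145.4 in Ventral and 369.5 to 2326.6 in the other regions. For Id3 it was 0.23 ± 0.26 SE (limma adjusted p = 0.665), from 2295.4 and 1402.7 in Ventral and 855.4 to 2542.5 in the others. Of the 8 tested probe sets 5 had a negative and 3 a positive difference, and their median was -0.64, against -0.02 over all tested probe sets.

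**Figure D1:**
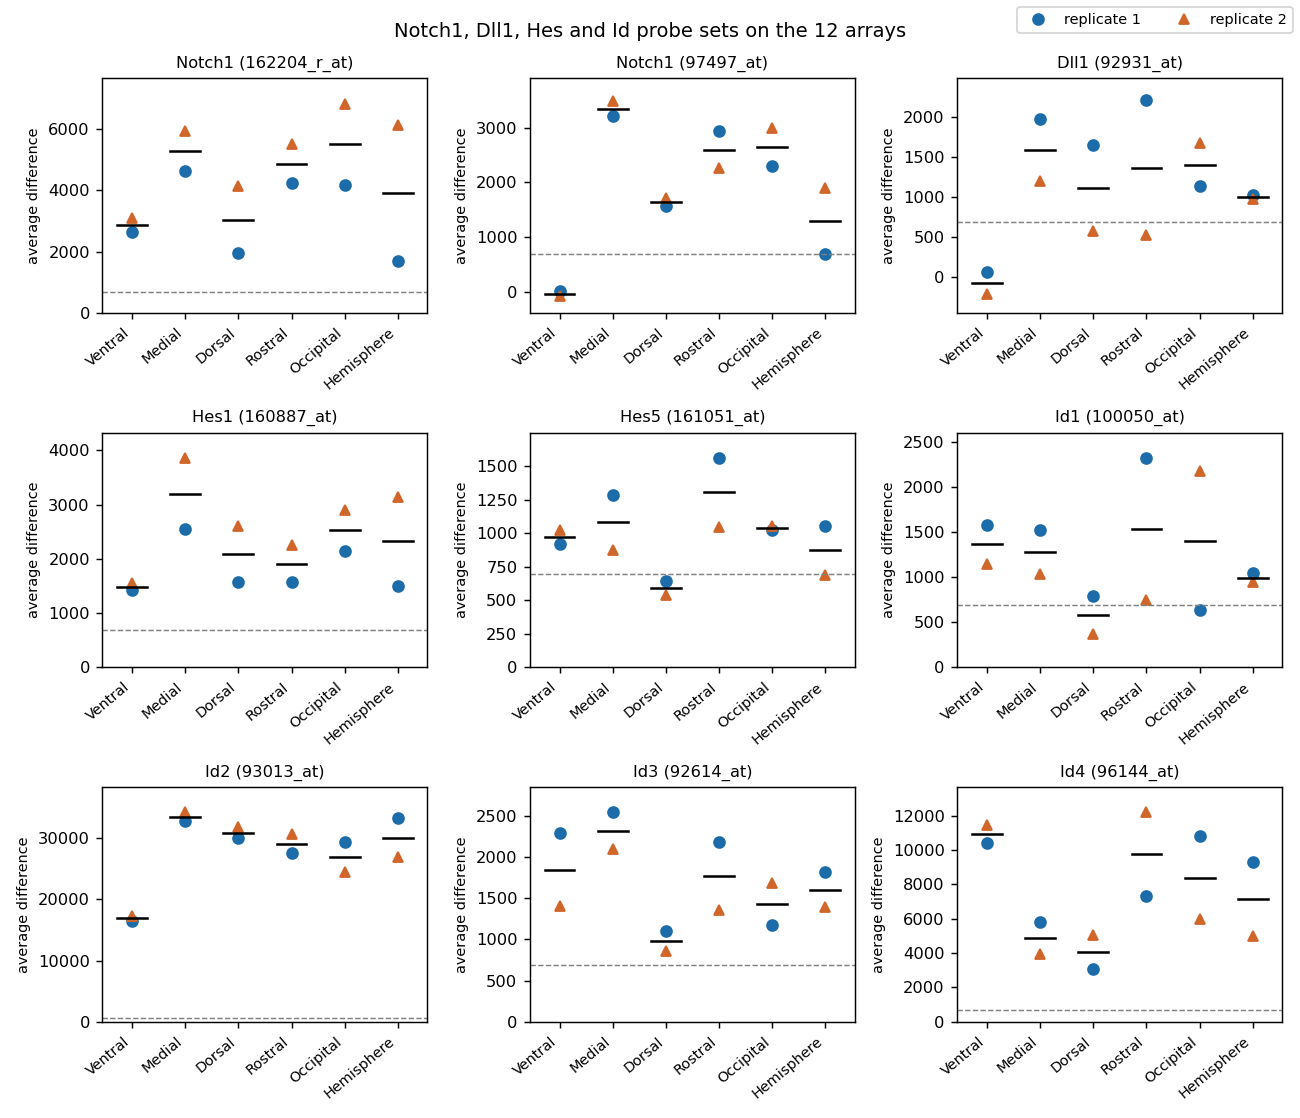
Average difference (linear scale, can be below 0) of 9 probe sets of the 8 genes in the 6 groups, with replicate 1 as circles, replicate 2 as triangles, a black bar at the mean of the 2 arrays and a dashed line at the floor of 693.5. Notch1 97497_at, Dll1, Id2 and, by a narrow margin, Hes1 have both Ventral arrays below every other region array. Id3 and Hes5 have both Dorsal arrays below every other region array. Id4 is high in Ventral, in Rostral replicate 2 and in Occipital replicate 1.

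The Medial piece had the highest mean among the 5 regions for Notch1 97497_at, Dll1 92931_at, Hes1, Id2 and Id3. None of the 8 tested probe sets passed in Medial against the other 4 regions, where 1.27% of all probe sets did. At an unadjusted p under 0.05, 3 members were higher and 0 lower, against 6.77% and 7.12% of all probe sets. Notch1 97497_at averaged 3345 ± 192 (SD, n = 2) in Medial and 1711 ± 1190 (SD, n = 8) in the other regions, with a log2 difference of 1.01 ± 0.31 SE (limma adjusted p = 0.176). This call was gained with only the region arrays in the fit (limma adjusted p = 0.0270, against 0.548 at its highest over 22 alternatives).

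Id2 in Medial lay above every array of the other regions, at 33510 ± 953 (SD, n = 2) against 25953 ± 6015 (SD, n = 8). The log2 difference was 0.41 ± 0.13 SE (limma adjusted p = 0.200). For Id3 it was 0.69 ± 0.26 SE (limma adjusted p = 0.265), and for Hes1 0.69 ± 0.32 SE (limma adjusted p = 0.376). Id4 differed in the other direction, by -0.66 ± 0.34 SE (limma adjusted p = 0.451). Of the 8, 7 had a positive difference, with a median of 0.50, against 0.02 over all probe sets.

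The Dorsal piece had the lowest mean of the regions for Id1, Id3 and Id4, and Id3 had the smallest p. Id3 had 1100.9 and 855.4 in Dorsal. It had 2542.5 and 2095.6 in Medial, 2295.4 and 1402.7 in Ventral, 2187.6 and 1354 in Rostral and 1179.4 and 1681.7 in Occipital. Both Dorsal arrays were below all others, narrowly so against Occipital replicate 1. Dorsal averaged 978 ± 174 (SD, n = 2), against 1842 ± 504 (SD, n = 8), with a log2 difference of -0.88 ± 0.26 SE (unadjusted p = 0.00853, limma adjusted p = 0.348).

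Id4 in Dorsal averaged 4046 ± 1393 (SD, n = 2), against 8483 ± 3096 (SD, n = 8), with a log2 difference of -1.01 ± 0.34 SE (limma adjusted p = 0.461). Id1 differed by -0.79 ± 0.47 SE (limma adjusted p = 0.960), with Dorsal values of 796.5 and 369.5, the second under the floor. Id2 was the exception, with 30867 ± 1243 (SD, n = 2) in Dorsal against 26613 ± 6709 (SD, n = 8) and a log2 difference of 0.26 ± 0.13 SE (limma adjusted p = 0.884). No member was called, as against 0.274% of all probe sets, and at an unadjusted p under 0.05 there were 2 lower members, against 3.89% of all probe sets.

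**Figure D2:**
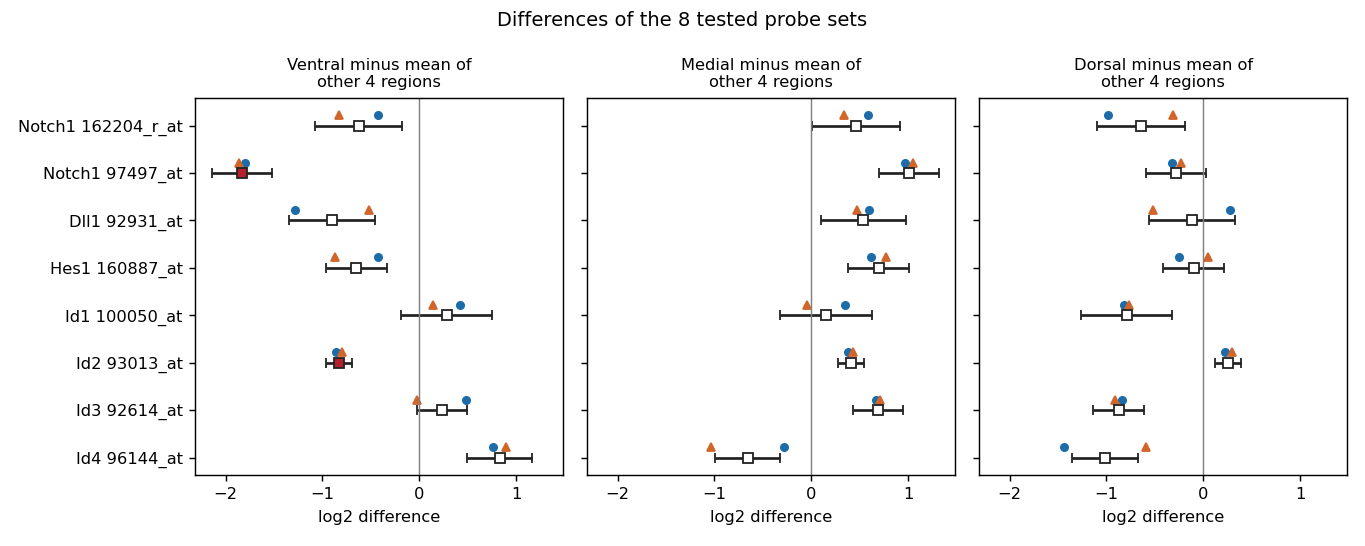
Log2 difference of the Ventral, Medial or Dorsal piece from the mean of the other 4 regions for the 8 tested probe sets, as squares with SE bars, filled red where the limma adjusted p is under 0.05, with the differences within replicate 1 (circles) and replicate 2 (triangles) above them. Only Notch1 97497_at (-1.83) and Id2 (-0.83) in Ventral are filled, and Id4 runs opposite to them in Ventral (0.83) and Medial (-0.66).

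Medial set directly against Ventral called the same 2 probe sets, both higher, against 6.05% of all probe sets called higher and 11.2% in both directions. These comparisons share their Ventral arrays with those above. Notch1 97497_at was at least 4.82-fold higher in Medial (log2 2.27 ± 0.39 SE, limma adjusted p = 0.00816), with 3209.5 and 3480.9 in Medial against 11.5 and -85.4 in Ventral. Id2 was 1.98-fold higher (log2 0.99 ± 0.17 SE, limma adjusted p = 0.00806). The Notch1 call was lost without Medial replicate 2, Ventral replicate 1 or Ventral replicate 2 (limma adjusted p = 0.0532, 0.0595 and 0.0525), and that of Id2 without Medial replicate 2 or Ventral replicate 1 (0.0574 and 0.0624). Hes1 had 2544.5 and 3859.6 in Medial against 1421.6 and 1553.3 in Ventral, a log2 difference of 1.08 ± 0.40 SE (limma adjusted p = 0.133, or 0.0109 with replicate number as a block). Id4 had 4877 ± 1326 (SD, n = 2) in Medial and 10923 ± 753 (SD, n = 2) in Ventral, a log2 difference of -1.19 ± 0.43 SE (limma adjusted p = 0.121).

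Dorsal against Ventral called Id2 alone among the members, 1.83-fold higher in Dorsal (log2 0.87 ± 0.17 SE, limma adjusted p = 0.0236), against 5.28% of all probe sets called and 2.49% called higher. That call was lost when either Dorsal or either Ventral array was left out (limma adjusted p = 0.110 to 0.169) and with only these 4 arrays in the fit (0.0522). Notch1 97497_at had 1573.9 and 1711.1 in Dorsal against 11.5 and -85.4 in Ventral, with a log2 difference of 1.24 ± 0.39 SE (limma adjusted p = 0.119). Its call depended on how values under the floor were set, with limma adjusted p = 0.0196 at 0.5 times the floor. At 2 times the floor it was 0.647, the highest over 22 alternatives. The call also depended on the arrays in the fit. With the floor unchanged it was gained with only these 4 arrays (limma adjusted p = 0.0403) and without either Hemisphere array. Id4 and Id3 had log2 differences of -1.47 ± 0.43 and -0.89 ± 0.33 SE (limma adjusted p = 0.0926 and 0.186).

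Between Medial and Dorsal no member passed, and 0.0686% of all probe sets did. Id3 was the nearest, at 2319 ± 316 (SD, n = 2) in Medial and 978 ± 174 (SD, n = 2) in Dorsal, 2.38-fold apart (log2 1.25 ± 0.33 SE, unadjusted p = 0.00435, limma adjusted p = 0.448). Notch1 97497_at followed with 1.03 ± 0.39 SE (limma adjusted p = 0.737). All 8 differences were positive, both Notch1 probe sets among them, with a median of 0.70, against 0.00 over all probe sets. Only that of Id4 changed sign between the replicates, with 0.93 in replicate 1 and -0.35 in replicate 2. Under some alternatives the differences of Id4 and Dll1 turned negative, to -0.07 and -0.10.

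No member passed between Rostral and Occipital, nor did any of the 5832 probe sets in limma (0% called, 62 probe sets or 1.06% at an unadjusted p under 0.05). Within the replicates the rostral minus occipital differences of Id1 were 1.75 in replicate 1 and -1.54 in replicate 2. For Dll1 92931_at they were 0.96 and -1.27, for Id3 0.89 and -0.31, and for Id4 -0.57 and 1.03. Of the 8 probe sets only Hes1 kept its sign, at -0.46 and -0.36. The subpallial marker sums given above also reversed between the replicates. The part of that reversal in the members' values was not tested. Rostral or Occipital against the other 4 regions also called 0 members and 0% of all probe sets, with 0 members at an unadjusted p under 0.05, against 1.78% and 2.16% of all probe sets.

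**Figure D3:**
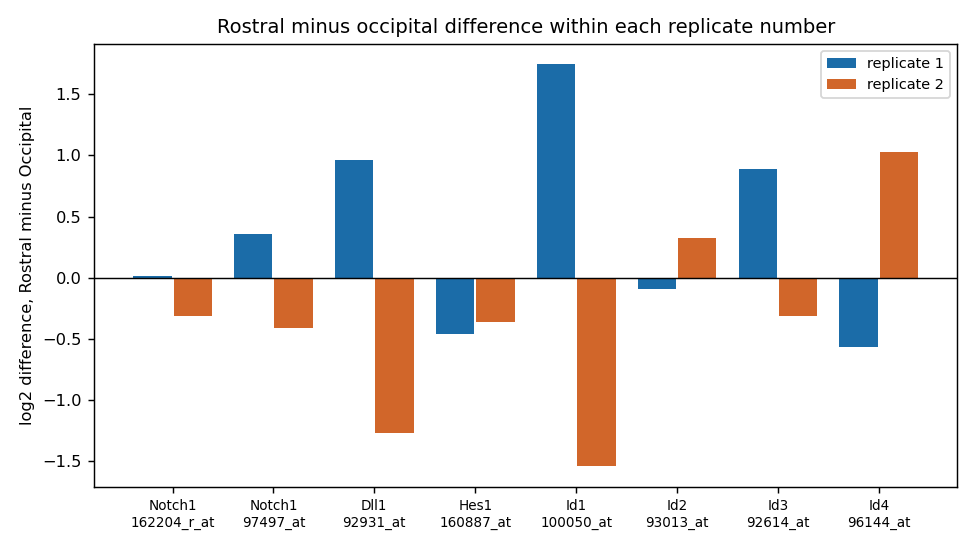
Log2 difference between the Rostral and the Occipital array of the same replicate number for the 8 tested probe sets, replicate 1 in blue and replicate 2 in orange. The 2 bars of Id1 (1.75 and -1.54), Dll1, Id3 and Id4 point in opposite directions, and those of Hes1 (-0.46 and -0.36) point the same way.

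The whole hemisphere was not tested against the pieces. Its Id2 values of 33213.4 and 26973.9 and its Hes1 values of 1500.8 and 3139.2 lay within the span of the region arrays. Notch1 was uneven there, with 1694.7 and 6133.4 on 162204_r_at and 680.9 and 1887.2 on 97497_at. The first Hemisphere array had the lowest 162204_r_at value of all 12.

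Ordered by mean over the 6 groups, Notch1 97497_at ran Medial, Occipital, Rostral, Dorsal, Hemisphere and Ventral. Its arrays did not overlap between Medial and Occipital, Rostral and Dorsal, or Hemisphere and Ventral. Gaps between neighbours, for this probe set and for the others below, are a description only. Their share over all probe sets was not counted, and with so few arrays per group they can arise by chance. Id2 ran Medial, Dorsal, Hemisphere, Rostral, Occipital and Ventral, and neighbours were separate at the top and at the bottom of that order. Id4 ran Ventral, Rostral, Occipital, Hemisphere, Medial and Dorsal, and every pair of neighbours overlapped. So did all neighbours of Notch1 162204_r_at, from Occipital through Medial, Rostral, Hemisphere and Dorsal to Ventral.

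Dll1 92931_at ran Medial, Occipital, Rostral, Dorsal, Hemisphere and Ventral, with a gap only above Ventral. Hes1 ran Medial, Occipital, Hemisphere, Dorsal, Rostral and Ventral, and its gap above Ventral was smaller than the larger of the 2 SDs. Id1 ran Rostral, Occipital, Ventral, Medial, Hemisphere and Dorsal, and Id3 ran Medial, Ventral, Rostral, Hemisphere, Occipital and Dorsal, both with a gap only above Dorsal. In an F-test over the 5 regions 0 members passed, against 3.26% of all probe sets. The nearest were Notch1 97497_at and Id2 (limma adjusted p = 0.0555 and 0.0567), and with replicate number as a block 2 members passed, against 7.58% of all probe sets.

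For the 7 members with a tested probe set, the genes most alike over the 12 arrays were found by Pearson's r of floored log2 values, using the tested probe set with the highest mean, a description of arrays that share groups and dissections. Id2 was most like Spata5, Bub3 and Gas1 (r = 0.97, 0.97 and 0.96, Spearman's rho = 0.89, 0.95 and 0.85). Hes1 was most like Epha4, Rbfox2 and Tulp3 (r = 0.94, 0.93 and 0.93, rho = 0.96, 0.90 and 0.84). Notch1 162204_r_at was most like Aldh7a1, Tenm4 and Syt11 (r = 0.93, 0.92 and 0.90, rho = 0.90, 0.94 and 0.96). Bub3 is a protein of the mitotic checkpoint, Gas1 a growth arrest gene and Epha4 a guidance receptor.

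Id4 was most like Rit2, Phlda1 and Nr2f6 (r = 0.91, 0.89 and 0.87, rho = 0.90, 0.87 and 0.88). Dll1 was most like Mfsd1, Limk1 and Rtf2 (r = 0.88, 0.87 and 0.87, rho = 0.90, 0.83 and 0.76). The lowest likeness was that of Id3, to Scrg1, Ly6e and Dpysl4 (r = 0.86, 0.84 and 0.83, rho = 0.84, 0.87 and 0.90). For Id1 it was Gabra2, Prr13 and Dock9, each at r = 0.88 (rho = 0.79, 0.85 and 0.91). No gene was named for more than 1 member.

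Other genes of the Notch pathway were counted without the 8 members, with 1 probe set per gene. Of 13 tested modulators 2 fell in Ventral and 0 rose, with a median log2 difference of -0.40, where 5.54% of all probe sets fell. Mfng, a glycosyltransferase that modifies Notch receptors, had 1261 ± 106 (SD, n = 2) in Ventral and 3287 ± 570 (SD, n = 8) in the other regions (log2 -1.37 ± 0.16 SE, limma adjusted p = 0.00195). Rbpj had 964 ± 252 (SD, n = 2) and 2056 ± 292 (SD, n = 8) (log2 -1.10 ± 0.20 SE, limma adjusted p = 0.0109). The Mfng call held under all 22 alternatives, and the Rbpj call was lost without Ventral replicate 1 (limma adjusted p = 0.160) and under 1 further alternative.

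Of 2 other tested genes of the Hes and Hey families, Hes6, known for promoting neuronal differentiation, fell in Ventral (log2 -0.69 ± 0.13 SE, limma adjusted p = 0.0111). Hes6 stands here as a Hes family gene, and its induction by Notch was not tested. It had 3521 ± 179 (SD, n = 2) there and 5704 ± 365 (SD, n = 8) in the other regions, and its call was lost without either Ventral array (limma adjusted p = 0.0935 and 0.123). Hey1 had a log2 difference of 0.11 (limma adjusted p = 0.790). Of 2 tested receptors and ligands, Notch2 and Dlk1, 0 passed in Ventral against the others. Notch2 averaged 1307 ± 163 (SD, n = 2) in Medial and 107 ± 26.4 (SD, n = 2) in Ventral, at least 1.88-fold higher (log2 0.91 ± 0.24 SE, limma adjusted p = 0.0459), a call lost when any 1 of 8 arrays was left out and under 5 of 9 other alternatives. At 2 times the floor its log2 difference was 0.02 (limma adjusted p = 0.961). Mfng, Rbpj and Hes6 also passed as higher in Medial and in Dorsal against the same Ventral arrays.

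Of 13 tested genes of BMP and transforming growth factor beta signalling, which acts upstream of Id genes, 2 fell in Ventral and 0 rose, again beside 5.54% of all probe sets. Smad4, the shared signal transducer, had 2966 ± 484 (SD, n = 2) in Ventral and 5661 ± 760 (SD, n = 8) in the others (log2 -0.93 ± 0.18 SE, limma adjusted p = 0.0154). Smad5, a transducer of BMP receptors, had 891 ± 241 (SD, n = 2) and 1545 ± 147 (SD, n = 8) (log2 -0.81 ± 0.17 SE, limma adjusted p = 0.0216). The Smad5 call was lost without the Rostral and Occipital arrays (limma adjusted p = 0.0605) and at 2 times the floor, where the log2 difference was -0.17 (0.433). The activin receptor Acvr2a had 7066 ± 171 (SD, n = 2) in Ventral and 3892 ± 1807 (SD, n = 8) in the others (log2 0.97 ± 0.26 SE, limma adjusted p = 0.0522). It passed as lower in Medial and in Dorsal against Ventral (log2 -1.43 and -1.44, limma adjusted p = 0.0267 and 0.0431). Its other probe set passed in Medial but not in Dorsal (log2 -1.32 and -1.08, limma adjusted p = 0.0326 and 0.104). The receptor Tgfbr1 had 1568 ± 113 (SD, n = 2) in Dorsal and 540 ± 283 (SD, n = 8) in the other regions. It exceeded the filter level on the 2 Dorsal arrays alone, so that it had to differ there, and its Dorsal values are a description with no test. Most ligands of this list, among them Bmp2, Bmp5, Bmp6 and Bmp7, were too dim to test.

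Of 8 tested basic helix-loop-helix genes, proneural genes and E proteins among them, 3 fell in Ventral and 0 rose, beside the same 5.54%. Neurog2, the main proneural gene of the cortex and a target of Hes repression, was at the floor in both Ventral arrays and at least 6.86-fold lower (log2 -2.78 ± 0.39 SE, limma adjusted p = 0.00351). Neurod6, a gene of cortical projection neurons, had 4911 ± 746 (SD, n = 2) in Ventral and 11967 ± 2617 (SD, n = 8) in the others (log2 -1.26 ± 0.20 SE, limma adjusted p = 0.00661). The E protein Tcf4, a binding partner of Id2, had 9597 ± 1754 (SD, n = 2) and 20868 ± 4370 (SD, n = 8) (log2 -1.10 ± 0.24 SE, limma adjusted p = 0.0237). In Medial against Ventral these 3 and Neurod1 rose, 4 of 8. Over the 38 genes tested of these lists, 8 passed in Ventral against the others, where 9.79% of all probe sets did. Without Ventral replicate 1 only Mfng passed of these 8, beside 1.56% of all probe sets, and without Ventral replicate 2 the calls of Hes6, Smad4 and Tcf4 were lost, beside 2.66%. In Medial against Ventral 11 passed, with 2 and 5 without these arrays, beside 11.2%, 3.69% and 4.34% of all probe sets. In Dorsal against Ventral 8 passed, beside 5.28% of all probe sets. Tgfbr1 is among them only because it met the filter through its Dorsal values, so it is no support, and Acvr2a was lower in Dorsal. All or most of these calls were lost with 1 Ventral array left out.

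**Figure D4:**
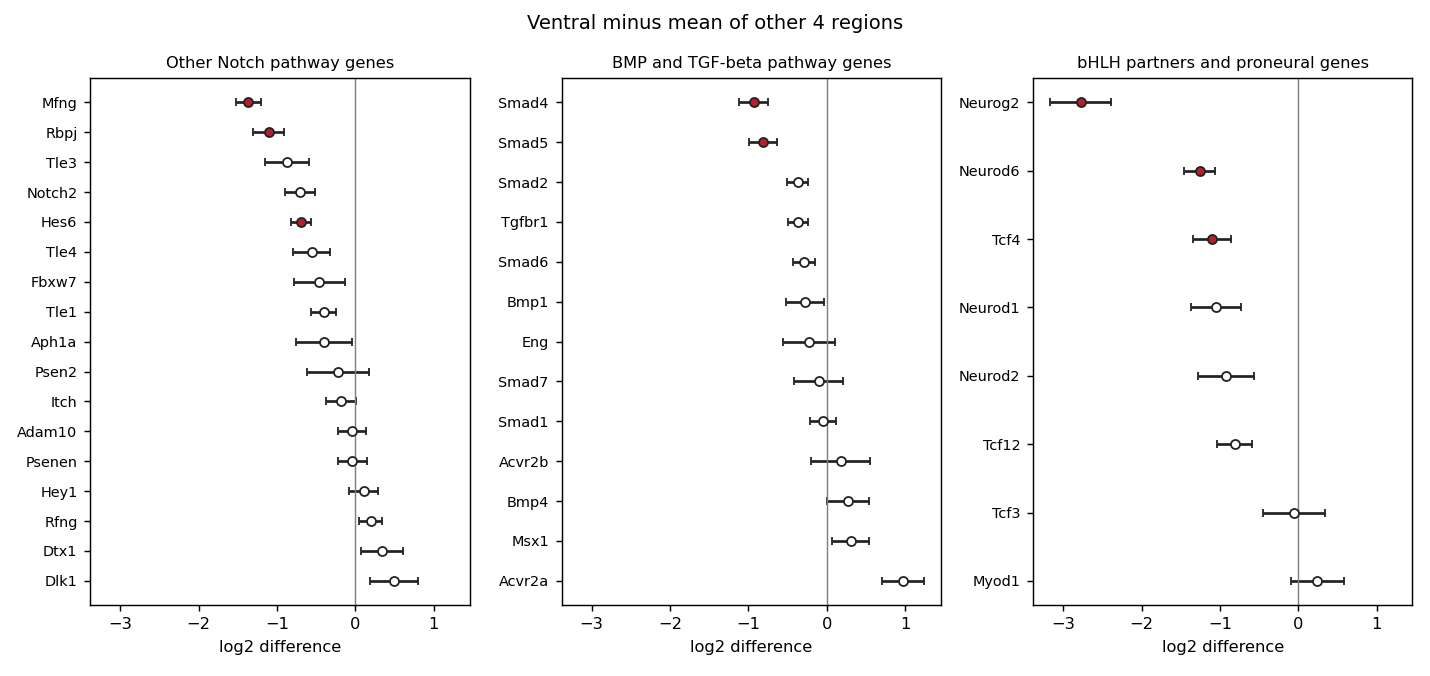
Log2 difference of Ventral from the mean of the other 4 regions, with SE bars, for the tested genes of the Notch pathway, of BMP and TGF-beta signalling and of the proneural and E protein list, filled red where the limma adjusted p is under 0.05. The 8 filled genes all lie to the left of 0, from Neurog2 (-2.78) to Hes6 (-0.69), and Acvr2a (0.97) lies farthest to the right.

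Markers of other cell types also differed in the Ventral piece, where 9.79% of all probe sets were called against the other regions and 5.54% were called lower. Of 9 tested neuron markers 4 were higher there (Nefl, Snap25, Syt1 and Gap43). The summed level of all 9 was 316221 to 316960 in Ventral against 202057 to 287126 in the other regions. Of 7 tested radial glia markers 0 were higher and 1, Prom1, was lower. The sum over these and the untested Vim, 8 in all, was 87522 to 87789 in Ventral against 77106 to 101383 in the other regions. Much of that sum was Fabp7, at 45212 to 56790 over the 12 arrays. Of 7 tested subpallial markers 2 were higher, Gad1 and Lhx6, and of 4 cortical markers 2 were lower, Eomes and Neurod6. Eomes had 236 ± 6.15 (SD, n = 2) in Ventral and 5261 ± 2297 (SD, n = 8) in the others. Without Ventral replicate 1, the calls of these markers other than Prom1 and Eomes were lost. The part of these differences in the values of Notch1 and Id2 was not tested.

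Endothelial cells express Notch1 and Id genes too. Of 11 endothelial markers on the annotation 3 were tested and 0 passed, with sums of 11793 to 11971 in Ventral against 10260 to 14342 in the other regions, and Pecam1, Cdh5, Tek and Emcn never exceeded the filter level. Of 4 tested meningeal markers 1 was lower in Ventral, Igfbp2, a call lost without the Rostral and Occipital arrays (limma adjusted p = 0.0529) and in 9 of 12 fits with 1 array left out. Of 3 choroid plexus, 2 blood and 4 microglial markers 0 passed. These counts too stand beside 9.79% of all probe sets called in this comparison and 5.54% called lower. RNA quality was read from beta-actin probe sets at both transcript ends. The 5′ signal divided by the 3′ signal was 0.665 and 0.856 on the Ventral arrays, against 0.706 to 0.887 on those of the other regions. For Gapdh probe sets the same ratio was 0.982 and 1.09, against 1.00 to 1.16. The part of RNA quality in the Ventral values was not tested.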

How the data were processed

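Per the labels' protocols, poly(A)+ RNA from dissected cortex was copied into cDNA and biotin-labelled cRNA and hybridised to mouse U74A arrays, each scanned 2 times. The authors deposited 1 intensity per probe set, the average difference; the software is not given in the sources used here. The deposited intensities have 2% trimmed means of 2501.6 to 2501.9 and were not rescaled. Values were floored at 693.5, the root mean square of the values below 0, and put on log2. Of 12488 probe sets, 66 controls were left out, and 5832 (46.9%) with over 1387 on at least 2 arrays were tested.

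Genes were named from the platform annotation. One limma fit (version 3.58.1, R 4.3.3) had a mean per group, 6 residual and 2.86 prior degrees of freedom. Tests were two-sided, adjusted over the 5832 probe sets within each comparison, and checked on simulated data. "At least" marks a fold whose lower side was at the floor on all arrays. The other 4 regions, to which a region was compared, weighed equally, and n = 8 counts their arrays.

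All probe sets of the 8 genes are described, list genes past the threshold are named, and for each tested member the 3 genes with the highest r. The members and lists were chosen with earlier results of these data known. Alternatives were other floors, filters, scale, normalization, variance model, replicate block, sample subsets and each array left out. Promoter windows are RefSeq's. With 2 arrays per group, precision is limited by their number.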

Additional observations from a re-analysis of the deposited data

How the results depend on the processing

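The 72 differences of the 8 tested probe sets in 9 comparisons were recomputed under 10 alternatives other than leaving out an array, where these could be fitted, which gave 678 values. Of these, 659 kept their direction and their side of the threshold, 1 lost its call, 8 gained one and 10 changed sign with no call on either side. Of 864 values with 1 array left out, 810 kept both, 13 lost a call, 4 gained one and 37 changed sign without a call, and 0 calls turned round. The number of called members was 3, against 2, in Ventral against the others and in Medial against Ventral, on the arcsinh scale through Dll1 (limma adjusted p = 0.0226 and 0.0324) and with the replicate block through Hes1. Over all probe sets the share called in Ventral against the others was 10.1% on the arcsinh scale and 16.1% with the block, against 9.79%. In Medial against Ventral it was 11.3% and 18.2%, against 11.2%. Called members numbered 1 in Medial against the others with only the arrays compared, beside 2.13% of all probe sets, against 1.27% in the main fit. They numbered 2 in Dorsal against Ventral at 0.5 times the floor and on the arcsinh scale. The shares of all probe sets there were 5.09% and 5.11%, against 5.28% in the main fit. In the F-test called members numbered 1 at 0.5 times the floor, with the stricter filter or with quantile normalization. They also numbered 1 on the arcsinh scale and with trend and robust variances. The shares of all probe sets there were 3.24%, 3.34%, 3.38%, 3.31% and 3.29%, against 3.26% in the main fit. Called members numbered 1 without the Rostral and Occipital arrays too, beside 6.57% of all probe sets. They numbered 2 with only the arrays compared, beside 4.01% of all probe sets. They also numbered 2 at 2 times the floor, where 175 of the 5832 probe sets were called, against 190 in the main fit. The cause of these changes in the number of called members was not tested. With single arrays left out the number ran from 0 to 2 for Ventral against the others, Medial against Ventral, Dorsal against Ventral and the F-test, from 0 to 1 for Medial against the others, and stayed at 0 in the other 5 comparisons.

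Replicates of different groups share a number in the titles. The deviations of replicate 1 from the group means correlated between groups at -0.06 to 0.56 over 15 pairs of groups, 14 of them over 0.1, which is a hint from the data that arrays of a number share something. The beta-actin 5′ to 3′ ratio was higher on replicate 2 than on replicate 1 in every group. It was 0.604 to 0.831 on replicate 1 arrays and 0.804 to 0.887 on replicate 2 arrays. The Gapdh ratio went either way. The part of RNA quality in the replicate differences was not tested. The labels do not say what a number marks, and Rostral with Occipital stood at -0.06, so the tests were not blocked. What arrays of a number share therefore stayed in the spread used for the tests, that of Hes1 among them. With replicate number as a block, 2 members passed the F-test, against 7.58% of all probe sets, and Hes1 passed in Ventral against the others and in Medial against Ventral. Over all probe sets the block gave 938 calls in Ventral against the others, against 571 without it. Having 2 arrays a group limits precision, and differences that run under the floor cannot be sized.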
